A study of Mus musculus with 6 samples.

Results

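The BAF complex, the mammalian SWI/SNF chromatin remodeller, uses ATP to move nucleosomes and is assembled from families of related subunits. In the developing nervous system, dividing progenitors carry one set of family members and postmitotic neurons carry their paralogs, an exchange described in mouse as the switch from npBAF to nBAF. Its genes were followed here as 10 member genes, taken by symbol from a table of 43629 genes. On the progenitor side these were Actl6a (BAF53a), Phf10 (BAF45a), Dpf2 (BAF45d), Ss18 and the ATPase Smarca4 (BRG1). On the neuronal side they were Actl6b (BAF53b), Dpf1 (BAF45b), Dpf3 (BAF45c), Ss18l1 (CREST) and the ATPase Smarca2 (BRM). Smarca4 is also used in neurons, so the ATPases are alternatives rather than a strict progenitor and neuronal pair.

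The samples were 3 medulloblastomas from mice of genotype Math1-Cre SmoM2.c/wt and 3 cerebella from littermates of genotype SmoM2.c/wt, which the sample titles call WT. All were female C57BL/6 mice at postnatal day 35. Both groups carry the conditional SmoM2 allele, an activated form of the Hedgehog pathway receptor Smoothened, and Math1-Cre drives recombination in cells of the Math1 (Atoh1) lineage, which includes cerebellar granule neuron progenitors. The labels do not say that each library is a separate mouse, so the p-values measure the spread between these libraries. Total RNA was sequenced, and the deposited values, called normalized counts here, are read counts divided by a size factor per library.

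Depth was 44902217 to 69550200 reads per library, and 3 reads correspond to 2.17 to 3.57 normalized counts. Smo, the targeted gene, was at 965, 1036 and 1036 normalized counts in the controls and at 4779, 5622 and 4506 in the tumors, a 4.91-fold difference in the direction of the labels. Gabra6 and Cbln3, genes of mature granule neurons, marked the control tissue with means of 72982 and 86787. Atoh1 and Gli1, which mark granule neuron progenitors and Hedgehog signalling, rose from 5.88 ± 5.41 (SD, n = 3) to 4361 ± 422 and from 440.2 ± 21.1 to 4923 ± 1489. Mitochondrial genes took 6.84% to 7.06% of reads in the controls and 2.49% to 3.79% in the tumors, and any part of this in the results below was not tested.

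Actl6a is a known target of miR-9-3p (miR-9*) and miR-124 in mouse neurons, so the mature miRNA and its matches in the members are shown first. The mature sequence from RefSeq (GRCm38.p6) is encoded by 3 hairpin genes, Mir9-1 at chr3:88215652-88215673, Mir9-3 at chr7:79505318-79505339 and Mir9-2 at chr13:83738858-83738879, all on the plus strand, and its seed, bases 2 to 8, is in capitals.
mmu-miR-9-3p: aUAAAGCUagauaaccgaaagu
The complement of that seed, AGCTTTA, was searched in the annotated 3′ UTR of each member's transcript with the longest coding sequence, on the transcript strand. It occurred once in Actl6a, starting at base 38 of a UTR of 371 bases, and once in Smarca2, starting at base 132 of 905. The stretches shown span chr3:32726628-32726654 and chr19:26777490-26777516 (GRCm38, plus strand), with the match in capitals.
Actl6a: ctcaacgtctgtAGCTTTAgtacactc
Smarca2: tcatctagaactAGCTTTAgggtagtg
The other 8 members had 0 matches. Of 14383 3′ UTRs cut to the length of that of Actl6a, 2.87% held the heptamer, and of 9630 cut to the length of that of Smarca2, 7.79% did. The Actl6a site lies on the progenitor member that rose most and the Smarca2 site on a neuronal-side member that fell, and a match in letters is not evidence of binding.

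RefSeq promoters, 250 bases before to 50 bases after the annotated start, were found for 9 of the 10 members. The promoter of Actl6a lies wholly inside the gene as the authors place it, from chr3:32706298, so it may not be that of their gene start. The promoters of the members with the 2 largest rises and of the 3 neuronal-side members called lower are given 5′ to 3′ on the strand of the gene, in GRCm38.p6, with capitals for matches to CCAAT and to the GC box GGGCGG on either strand.
Actl6a, chr3:32708296-32708595, plus strand: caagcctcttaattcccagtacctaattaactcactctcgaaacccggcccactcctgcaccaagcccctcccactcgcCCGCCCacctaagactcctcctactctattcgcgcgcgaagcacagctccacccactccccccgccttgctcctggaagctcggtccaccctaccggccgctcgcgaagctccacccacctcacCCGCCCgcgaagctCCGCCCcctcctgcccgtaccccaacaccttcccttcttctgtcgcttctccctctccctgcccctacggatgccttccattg
Smarca4, chr9:21615919-21616218, plus strand: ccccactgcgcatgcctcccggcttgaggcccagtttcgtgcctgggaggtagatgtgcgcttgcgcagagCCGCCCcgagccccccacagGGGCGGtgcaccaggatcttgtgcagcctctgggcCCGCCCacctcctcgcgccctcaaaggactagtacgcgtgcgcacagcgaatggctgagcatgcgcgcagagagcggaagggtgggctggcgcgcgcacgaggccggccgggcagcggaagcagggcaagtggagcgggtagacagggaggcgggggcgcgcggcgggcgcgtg
Actl6b, chr5:137553296-137553595, plus strand: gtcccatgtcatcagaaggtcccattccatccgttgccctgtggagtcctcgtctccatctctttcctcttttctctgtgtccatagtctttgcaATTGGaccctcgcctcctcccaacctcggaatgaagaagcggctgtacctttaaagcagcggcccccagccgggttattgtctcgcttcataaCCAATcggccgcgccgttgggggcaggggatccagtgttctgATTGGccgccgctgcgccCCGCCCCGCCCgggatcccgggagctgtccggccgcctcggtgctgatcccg
Dpf3, chr12:83487687-83487986, minus strand: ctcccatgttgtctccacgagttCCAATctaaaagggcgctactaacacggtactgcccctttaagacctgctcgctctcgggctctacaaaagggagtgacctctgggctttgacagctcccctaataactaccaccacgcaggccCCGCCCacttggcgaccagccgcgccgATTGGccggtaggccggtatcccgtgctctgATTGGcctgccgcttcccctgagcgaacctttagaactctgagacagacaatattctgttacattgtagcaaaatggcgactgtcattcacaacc
Smarca2, chr19:26604910-26605209, plus strand: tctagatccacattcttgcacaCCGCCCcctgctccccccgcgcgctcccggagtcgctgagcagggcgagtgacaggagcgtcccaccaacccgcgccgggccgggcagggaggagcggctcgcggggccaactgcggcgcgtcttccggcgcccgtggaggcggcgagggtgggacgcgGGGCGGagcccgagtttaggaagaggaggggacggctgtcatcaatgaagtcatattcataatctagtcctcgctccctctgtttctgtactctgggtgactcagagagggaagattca
The Actl6a and Smarca4 promoters each held 3 GC boxes and no CCAAT, and that of Smarca2 held 2 GC boxes and no CCAAT. Actl6b and Dpf3 each held 3 CCAAT matches, a number reached by 3.37% of 32851 promoters of the same length; at least 1 occurred in 37.4% of them. Besides these, Dpf1 and Dpf2 held CCAAT, which makes 4 of 9 members, and 8 of 9 held the GC box, against 35.7% of all promoters. The 2 GC boxes of Actl6b overlap each other. No member promoter held TTTGGCGC or TTTCCCGC (E2F), CACGTG (E-box), GACCACCCA (GLI), TTCAGCACC (part of the RE1 site of REST) or TGACGTCA (CRE), which occurred in 0.514%, 1.07%, 7.15%, 0.253%, 0.371% and 1.79% of promoters. These are matches of letters only, and absence says nothing of the factors.

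In the tumors all 5 progenitor-side genes rose, while 3 of the 5 neuronal-side genes fell and 2 did not pass the test. All 10 members passed the filter on low values. The test was limma-trend on log2(value + 1), with Benjamini-Hochberg adjustment over 22117 genes and a threshold of 0.05. Over all those genes 30.6% were called higher and 31.5% lower (62.1% in either direction), so a call alone sets no gene apart, and the size of the difference says more. The median log2 fold change was 1.18 over the progenitor members and -0.37 over the neuronal members, beside -0.02 over all genes tested. The progenitor rises were uneven: 57.2% of genes tested had a lower log2 fold change than Phf10, 63.0% than Dpf2 and 93.9% than Actl6a. The call of Phf10 was near the threshold (limma adjusted p = 0.0472). Libraries of the groups did not overlap for 9 members, with all tumors above the controls in 5 and below in 4; over all genes the shares were 33.2% and 34.5%, 67.7% in all. RNA was taken from whole tissue, so fewer cells of a type and less RNA per cell cannot be told apart.

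**Figure D1:**
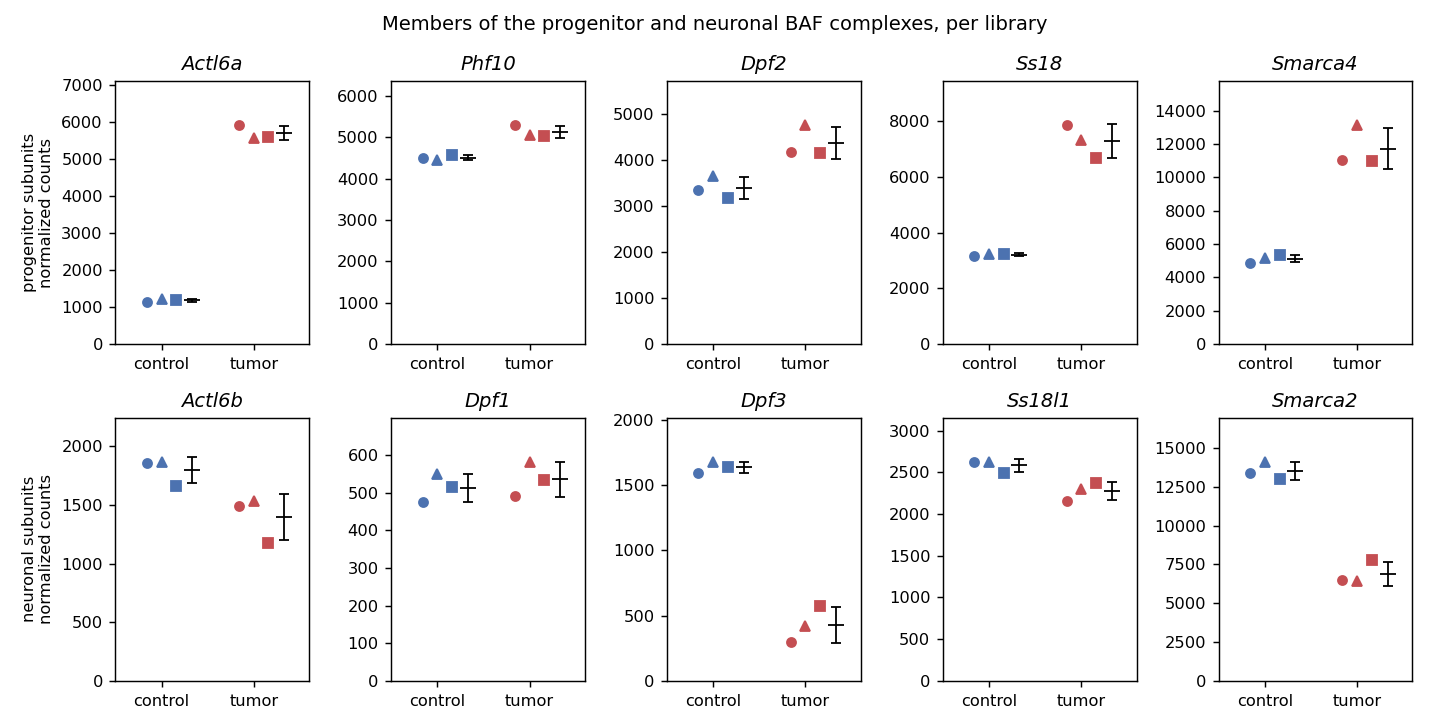
Normalized counts (y axis, linear from 0, a separate scale for each gene) of the 10 members in each control (blue) and tumor (red) library; circles, triangles and squares are replicates 1, 2 and 3, and the bar beside each group is the mean ± SD. Actl6a, Ss18 and Smarca4 stand well apart in the upper row and Dpf3 and Smarca2 in the lower row, and Dpf1 overlaps.

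Actl6a encodes the actin-related subunit of the progenitor complex, and it had the largest change among the members. It lies at chr3:32706298-32726973 on the plus strand (ENSMUSG00000027671, mm10). Its normalized counts were 1131, 1227 and 1192 in the controls and 5912, 5563 and 5598 in the tumors. The tumor libraries lay close together, all far above the controls. The rise was 4.81-fold, from 1183 ± 48.5 to 5691 ± 192 (SD, n = 3), a log2 fold change of 2.26 ± 0.08 (SE; limma adjusted p = 1.50e-08), higher than that of 93.9% of genes tested. Of its exonic bases, 452 (11.6%) overlap Mrpl47 on the opposite strand, and reads there cannot be assigned without strand; Mrpl47 had means of 1960 and 2302.

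Actl6b, the neuron-specific actin-related subunit that replaces Actl6a on cell-cycle exit, fell by a small amount. It lies at chr5:137553517-137569582 on the plus strand (ENSMUSG00000029712). It was at 1859, 1870 and 1666 normalized counts in the controls and at 1490, 1530 and 1177 in the tumors. Every tumor library was below every control, with tumor 3 the lowest. The means were 1798 ± 115 and 1399 ± 193, a log2 fold change of -0.37 ± 0.12 (limma adjusted p = 0.0203), and 39.1% of all genes had a lower value. Without control 1 or control 2 the log2 fold change was -0.35 and -0.34 and the call was lost (limma adjusted p = 0.0749 and 0.0787); without tumor 3 it was -0.25 and the call was kept (0.0434).

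The PHD-finger family, which supplies the BAF45 subunits and reads histone tails, moved unevenly. Phf10 (ENSMUSG00000023883, chr17:14945009-14961273, minus strand) was at 4502, 4459 and 4568 in the controls and at 5303, 5050 and 5030 normalized counts in the tumors. The groups were separate but near each other: a 1.14-fold rise from 4510 ± 55.0 to 5128 ± 152, log2 0.18 ± 0.07, with a limma adjusted p of 0.0472. That call was lost without control 1, 2 or 3 or tumor 1, with adjusted p values of 0.125, 0.134, 0.102 and 0.114, and 470 of its exonic bases (9.56%) overlap 1600012H06Rik on the opposite strand. Dpf2 (ENSMUSG00000024826, chr19:5896516-5913010, minus strand), a subunit found in BAF complexes of many cell types, was at 3351, 3648 and 3172 in the controls and at 4177, 4759 and 4148 in the tumors. Its groups did not overlap, and it rose 1.29-fold from 3390 ± 240 to 4361 ± 345, log2 0.36 ± 0.09 (limma adjusted p = 0.00604).

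The neuronal PHD-finger genes Dpf1 and Dpf3 differed from each other. Dpf3, at chr12:83213745-83487716 on the minus strand (ENSMUSG00000021221), had the largest fall of the members. Its normalized counts were 1597, 1681 and 1640 in the controls and 298.3, 419.6 and 572.6 in the tumors. The controls were tightly grouped (coefficient of variation 2.57%), whereas the tumors spread (32.0%), from the lowest in tumor 1 to the highest in tumor 3. The mean fell from 1639 ± 42.2 to 430.1 ± 137, 3.81-fold lower in the tumors, log2 -1.98 ± 0.20 (limma adjusted p = 1.56e-05), and 10.4% of genes had a lower value. Dpf1 (ENSMUSG00000030584, chr7:29303951-29317588, plus strand) was at 474.6, 548.1 and 514.3 in the controls and at 489.6, 582.1 and 534.2 in the tumors. These ranges overlapped, with means of 512.3 ± 36.8 and 535.3 ± 46.3 and a log2 fold change of 0.06, 95% interval -0.22 to 0.35 (limma adjusted p = 0.694). Its sign changes with upper-quartile scaling and without tumor 2.

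Ss18 and Ss18l1 encode alternative subunits of the same position; Ss18l1 (CREST) is a calcium-responsive coactivator needed for dendrite growth in mouse neurons. Ss18 (ENSMUSG00000037013, chr18:14624198-14682914, minus strand) was at 3147, 3242 and 3215 in the controls and at 7855, 7300 and 6662 normalized counts in the tumors. All tumor values were more than 2 times the controls, with a mean rise of 2.27-fold from 3201 ± 49.2 to 7272 ± 597, log2 1.18 ± 0.08 (limma adjusted p = 1.19e-06). Ss18l1 (ENSMUSG00000039086, chr2:180042509-180070201, plus strand) was at 2628, 2629 and 2491 in the controls and at 2157, 2297 and 2374 in the tumors. Its groups did not overlap, yet the difference was small, 2583 ± 79.0 against 2276 ± 110, log2 -0.18 with a 95% interval of -0.36 to -0.00, and it did not pass the test (limma adjusted p = 0.0754). Without tumor 3 it passed, at 0.0492.

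The ATPases moved in opposite directions by similar amounts. Smarca4 (ENSMUSG00000032187, chr9:21616169-21704230, plus strand), the BRG1 motor of the complex, was at 4885, 5169 and 5344 normalized counts in the controls and at 11015, 13140 and 11004 in the tumors. All 3 tumors were above all controls, and tumor 2 was the highest. The mean rose 2.28-fold from 5133 ± 231 to 11720 ± 1230, log2 1.19 ± 0.09 (limma adjusted p = 2.22e-06). Smarca2 (ENSMUSG00000024921, chr19:26605115-26778321, plus strand), the BRM motor, was at 13408, 14116 and 13025 in the controls and at 6490, 6437 and 7787 in the tumors. It fell from 13516 ± 554 to 6905 ± 765, 1.96-fold lower, log2 -0.97 ± 0.09 (limma adjusted p = 1.02e-05), with tumor 3 the highest of its group.

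**Figure D2:**
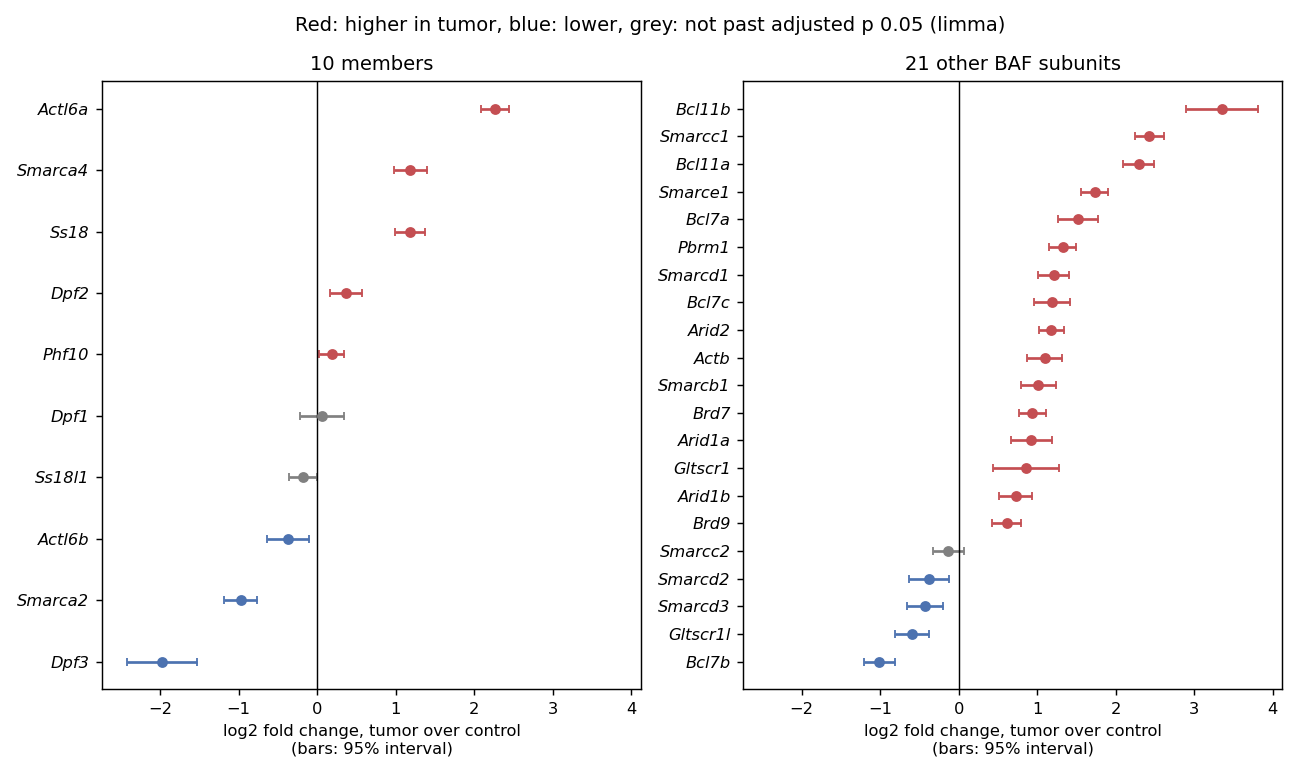
Log2 fold change of tumor over control (x axis) with 95% intervals from limma for the 10 members (left) and 21 other BAF subunits (right), colored by call. Actl6a lies at 2.26 and Dpf3 at -1.98, the ends of the left panel. Of the 21 other subunits 16 are called higher, beside 30.6% of all genes tested.

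The RNA of the partners was then compared within each library as the log2 ratio of the progenitor to the neuronal partner, in which the library's scaling cancels. In 6 of 7 pairs every tumor ratio was above every control ratio. Groups did not overlap for 67.7% of single genes, and the share over other pairs of genes was not computed. The exact two-sided permutation test over 3 against 3 libraries cannot go below p = 0.1, which those 6 pairs reached; adjusted over the 7 pairs it was 0.117, past no threshold. For the actin-related subunits, the log2 ratio of Actl6a to Actl6b was -0.72, -0.61 and -0.48 in the controls and 1.99, 1.86 and 2.25 in the tumors. Actl6b counts exceeded those of Actl6a in each control, and the reverse held in each tumor; the difference was 2.64 ± 0.13 (SE), a 6.21-fold change of the ratio.

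For the ATPases, the log2 ratio of Smarca4 to Smarca2 was -1.46, -1.45 and -1.29 in the controls and 0.76, 1.03 and 0.50 in the tumors. The sign of the ratio of counts was again opposite in the groups, and the difference was 2.16 ± 0.16. The log2 ratio of Ss18 to Ss18l1 went from 0.26, 0.30 and 0.37 to 1.86, 1.67 and 1.49. It was above 0 in all libraries and differed by 1.36 ± 0.11, with the largest tumor value in tumor 1.

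Among the PHD-finger genes the size of the change followed the neuronal partner chosen. Against Dpf3, the log2 ratio of Phf10 went from 1.49, 1.41 and 1.48 to 4.15, 3.59 and 3.13, a difference of 2.16 ± 0.29. That of Dpf2 to Dpf3 went from 1.07, 1.12 and 0.95 to 3.80, 3.50 and 2.85, a difference of 2.34 ± 0.28. In both, tumor 1 was the highest and tumor 3 the lowest of the tumors. Against Dpf1, the Dpf2 ratio went from 2.82, 2.73 and 2.62 to 3.09, 3.03 and 2.95, a difference of 0.30 ± 0.07. The ratio of Phf10 to Dpf1 was 3.24, 3.02 and 3.15 in the controls and 3.43, 3.11 and 3.23 in the tumors. These overlapped, with a difference of 0.12 ± 0.11 (exact permutation p = 0.5). Pairs that share a gene are not independent of each other.

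**Figure D3:**
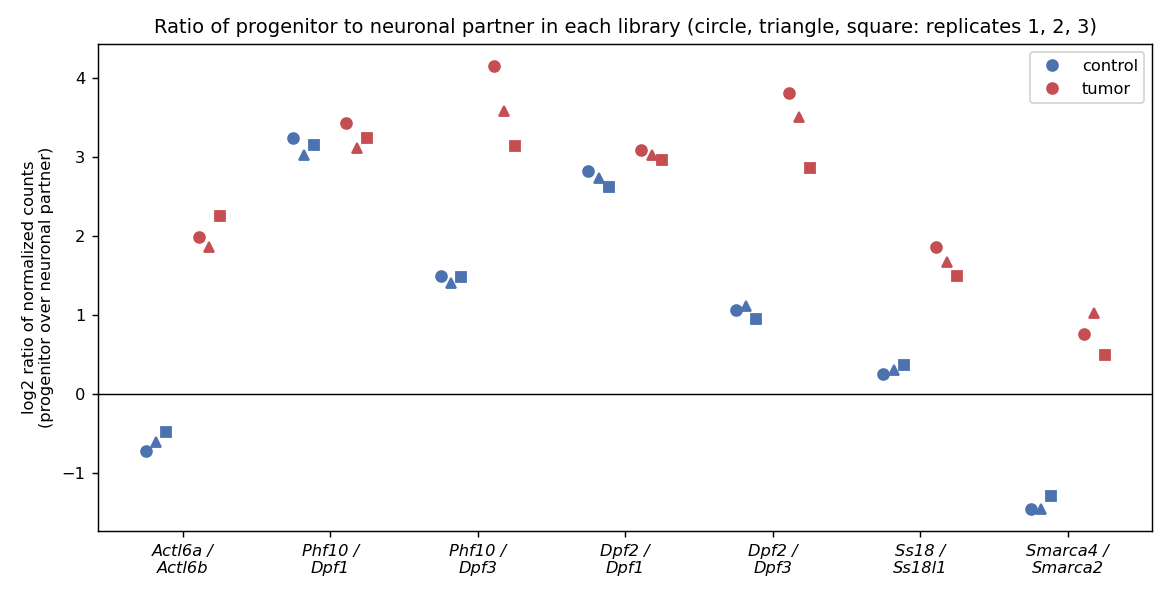
Log2 ratio of normalized counts, progenitor over neuronal partner (y axis), for 7 pairs in each control (blue) and tumor (red) library; the symbols are replicates 1 to 3 and the line marks equal counts. Actl6a/Actl6b and Smarca4/Smarca2 lie below 0 in all controls and above 0 in all tumors, and Phf10/Dpf1 overlaps.

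To compare levels between genes, normalized counts were divided by the length of all annotated exons in kb. In the controls the level per kb was highest for Smarca2 (947.2 ± 38.8, SD) and Phf10 (917.7 ± 11.2), whose ranges of mean ± SD overlap. Smarca4 (792.7 ± 35.8), Ss18l1 (594.6 ± 18.2) and Dpf2 (521.5 ± 36.9) followed. Then came Actl6b (421.5 ± 26.9) and Dpf3 (388.0 ± 9.98), which overlap, then Ss18 (339.9 ± 5.22), Actl6a (304.5 ± 12.5) and, far below, Dpf1 (95.3 ± 6.84). In the tumors the order began with Smarca4 (1810 ± 190) and Actl6a (1464 ± 49.4), then Phf10 (1043 ± 30.9). Ss18 (772.1 ± 63.4) and Dpf2 (670.9 ± 53.0) overlapped, as did Ss18l1 (524.1 ± 25.3) and Smarca2 (483.9 ± 53.6). Actl6b followed at 327.8 ± 45.3, and Dpf3 (101.8 ± 32.5) and Dpf1 (99.6 ± 8.60) overlapped at the bottom. Actl6a, ninth in the controls, was the second highest member per kb in the tumors.

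Shares within each position of the complex were taken from these levels per kb. They are shares of RNA and do not give the makeup of the assembled complex. The PHD-finger sum pools Phf10, which helps define the PBAF form of the complex, with the 3 Dpf genes. It is thus a sum over a gene family, and its shares are not those of alternatives for 1 position. Actl6a held 42.0% ± 1.98 of the actin-related level in the controls and 81.7% ± 2.01 in the tumors. Smarca4 held 45.6% ± 1.67 of the ATPase level in the controls and 78.8% ± 3.06 in the tumors. The share of Ss18 went from 36.4% ± 0.872 to 59.5% ± 3.13. Of the PHD-finger level, Dpf3 held 20.2% ± 0.253 and then 5.31% ± 1.71, while Dpf1 held 4.95% ± 0.273 and 5.19% ± 0.336. Phf10 went from 47.8% ± 1.47 to 54.5% ± 2.57 and Dpf2 from 27.1% ± 1.42 to 34.99% ± 1.94.

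The summed level per kb of a position was not constant. The actin-related sum went from 726.0 ± 28.4 to 1792 ± 77.1 (2.47-fold), the SS18 sum from 934.5 ± 17.7 to 1296 ± 38.97 (1.39-fold) and the ATPase sum from 1740 ± 46.8 to 2294 ± 168 (1.32-fold). In each, all tumors were above all controls (exact permutation p = 0.1, the smallest possible). The PHD-finger sum was 1923 ± 39.6 in the controls and 1916 ± 45.1 in the tumors (exact permutation p = 0.5). Shares and sums depend on the length used: with the transcript of the longest coding sequence, a length chosen after seeing the data, Actl6a went from 34.3% to 76.4%, Ss18 from 63.5% to 81.7%, Smarca4 from 25.9% to 60.9% and Dpf3 from 10.7% to 2.60%. The fold of the ATPase sum was then 0.970, that of the SS18 sum 1.76 and that of the PHD-finger sum 1.08. The order of levels changed as well, with Phf10 the highest per kb in the controls (2712) and in the tumors (3083), above Actl6a (2831).

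**Figure D4:**
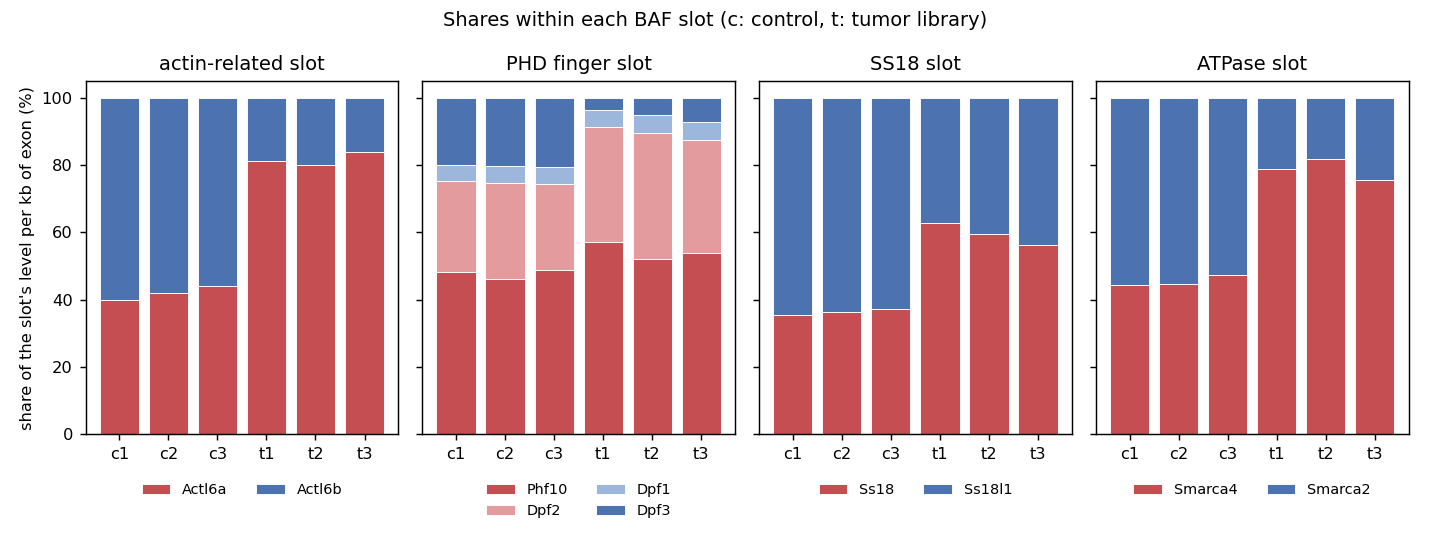
Share of the summed level per kb of exon (y axis, percent) of each position, or of the PHD-finger family, held by each member. Stacked bars are control libraries c1 to c3 and tumor libraries t1 to t3. Actl6a rises from a mean of 42.0% to 81.7% and Smarca4 from 45.6% to 78.8%, while Dpf3 shrinks from 20.2% to 5.31%.

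The neuronal members were set beside markers of mature cerebellar cells, since those fell far more than most of these subunits. As a percentage of the control mean, Dpf1 was at 95.6, 114 and 104 in tumors 1, 2 and 3, Ss18l1 at 83.5, 89.0 and 91.9 and Actl6b at 82.8, 85.1 and 65.4. Smarca2 was at 48.0, 47.6 and 57.6, and Dpf3 at 18.2, 25.6 and 34.9. The summed markers of neurons in general (Snap25, Syt1, Syp, Map2, Stmn2 and Tubb3) were at 36.0, 30.8 and 37.7 percent. Of those 6, Tubb3 rose, 4 fell and Map2 did not pass the test. Actl6b, often used as a neuron-specific gene, was thus at a higher percentage than the general neuronal sum in each tumor. Snap25 has the largest counts in that sum (means of 178646 and 21827). The ratio of tumor to control means was 0.778 for Actl6b. It was 0.122 for Snap25, 0.108 for Syt1, 0.210 for Syp, 0.580 for Stmn2, 1.14 for Map2 and 4.13 for Tubb3. Actl6b thus lay within the range of these genes.

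The marker sums of mature cell types were far lower. The 8 mature granule neuron markers all fell, their sum going from 248849 to 286633 normalized counts in the controls to 21948 to 37416 in the tumors, or 8.16, 9.07 and 13.9 percent of the control mean. The 6 Purkinje cell markers fell to 8.23, 9.30 and 16.2 percent (444212 to 454403 against 36945 to 72808), and the 6 of GABAergic interneurons to 10.3, 8.92 and 16.4 percent (111733 to 118111 against 10228 to 18746). The 6 oligodendrocyte markers fell to 11.4, 8.68 and 22.1 percent (659707 to 805671 against 61496 to 156547). Tumor 3 was highest in these lists, as it was in Dpf3, Ss18l1 and Smarca2, while it was lowest in Actl6b. Genes with high counts weigh most in these sums. Rbfox3, with the smallest fall of the 8 granule neuron markers, went from a mean of 8658 to 4305. No marker was at 0 in all libraries, and the part of these cells in the members' values was not tested.

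Among the other lists, the 8 markers of granule neuron progenitors and cycling cells all rose (7116 to 7797 against 175290 to 186465). Of 6 microglia and macrophage markers, 5 rose and 1 did not pass (4454 to 5420 against 13823 to 15022). Of 6 markers of astrocytes and Bergmann glia, 1 rose, 4 fell and 1 did not pass (196677 to 202286 against 136721 to 142828). Of 4 endothelial markers, 3 fell and 1 did not pass (5569 to 6526 against 1904 to 3409). All 4 of the choroid plexus fell (69126 to 121077 against 523.4 to 21637), and tumor 3 had almost none. Their part in the members' values was not tested.

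**Figure D5:**
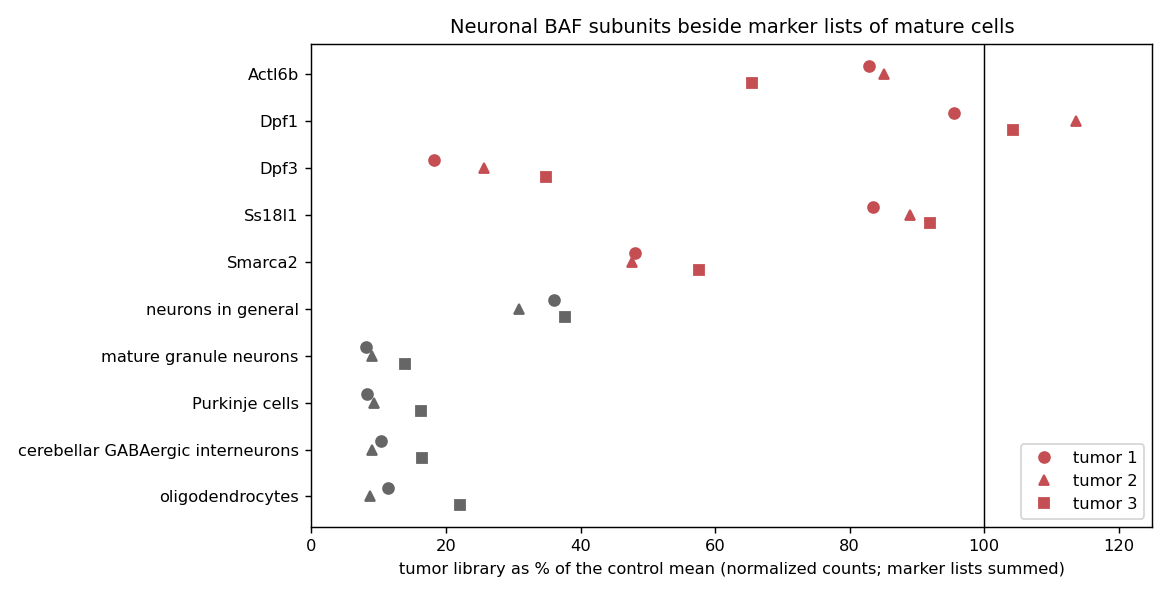
Each tumor library as a percentage of the control mean (x axis, line at 100) for the 5 neuronal-side members (red) and the summed markers of mature cells (grey); circles, triangles and squares are tumors 1, 2 and 3. Dpf1, Ss18l1 and Actl6b lie between 65.4 and 114 percent, and the granule, Purkinje, interneuron and oligodendrocyte sums at or below 22.1 percent.

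Most of the remaining subunits were higher in the tumors too. Of 21 other BAF subunits, all tested, 16 were called higher, 4 lower and 1 neither, beside 30.6% higher and 31.5% lower over all genes. Their median log2 fold change was 1.02, beside -0.02 over all genes. Among 11 core subunits 7 rose and 3 fell (median 1.10), the 4 canonical BAF subunits rose (1.61), the 3 PBAF subunits rose (1.18), and of 3 non-canonical subunits 2 rose and 1 fell (0.61). Arid1a and Arid1b, the large subunits that define canonical BAF, rose 1.91-fold and 1.66-fold. Pbrm1, Arid2 and Brd7, which with Phf10 define PBAF, rose 2.51-fold, 2.27-fold and 1.92-fold, against the 1.14-fold of Phf10.

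The 3 largest rises were in Bcl11b, Smarcc1 and Bcl11a. Bcl11b, a zinc finger subunit, was at 58.1, 91.5 and 72.7 normalized counts in the controls and at 771.3, 845.8 and 657.2 in the tumors (log2 3.35 ± 0.20, limma adjusted p = 4.66e-07). Its paralog Bcl11a went from 816.9 ± 38.3 to 4006 ± 169 (log2 2.29, 2.18e-08). Both were clearly separate between the groups. Smarcc1 (BAF155), a scaffold subunit enriched in progenitors, rose 5.40-fold from 2528 ± 42.7 to 13639 ± 993 (log2 2.43, limma adjusted p = 1.14e-08). Its paralog Smarcc2 (BAF170) was at 12542 ± 505 and 11495 ± 977, overlapping, with log2 -0.13 (adjusted p = 0.220); without tumor 2 the adjusted p was 0.0244.

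The 3 largest falls were in Bcl7b, Gltscr1l and Smarcd3. Bcl7b went from 1854 ± 59.9 to 920.6 ± 15.1 (log2 -1.01, limma adjusted p = 4.71e-06), whereas its paralogs Bcl7a and Bcl7c rose by log2 1.52 and 1.19. Gltscr1l (Bicral), of the non-canonical complex, went from 2902 ± 242 to 1929 ± 137 (log2 -0.59, adjusted p = 0.000435), while Gltscr1 (Bicra) rose by log2 0.86. Smarcd3 (BAF60c), a subunit enriched in neurons and muscle, went from 1435 ± 24.7 to 1072 ± 102 (log2 -0.43, adjusted p = 0.00438). Smarcd1 rose 2.32-fold and Smarcd2 fell by 0.38 on the log2 scale (adjusted p = 0.0159; 0.0532 and 0.0564 without control 1 or 2). Different paralogs of the same position thus moved in opposite directions in the BCL7, GLTSCR1 and SMARCD families too.

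The 10 members were next read in the authors' deposited tables. By the authors' deposited table covering every gene, 7 members had a false discovery rate under 0.05, and Phf10 (0.246), Ss18l1 (0.273) and Dpf1 (0.913) did not. The share of all genes under 0.05 in that table was not computed. In the limma fit here, another test with its own filter, 62.1% of all genes tested were called. That share is not a background for the count of 7, which is not read as a result about the members. The authors' deposited short list has 2654 genes, beside 43629 in the whole table and 22117 tested here. Actl6a (log2 2.27, false discovery rate 0.0278) and Dpf3 (log2 -1.89, 0.0484) are the 2 of 10 members present, along with 4 of the 21 other subunits. The sources used here do not say how that list was selected, so these counts are not read as a result about the members.

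Genes with a pattern like that of Actl6a or Actl6b were ranked by the root mean square difference of log2(value + 1), centred on the control mean, over the 6 libraries. Closest to Actl6a was Vrk1, a kinase of chromatin and cell division, at 0.0395, with means of 610.8 and 2985 normalized counts. Anks4b followed at 0.0583, but it was listed at 0 in the controls and at 4.02 ± 0.285 in the tumors, close to the value of 3 reads. Msantd3 came next at 0.0637 (431.7 and 2007). Closest to Actl6b were Gfra4 at 0.0421 (556.8 and 443.3), Narfl at 0.0422 (1228 and 962.1) and Taz at 0.0433 (2451 and 1870). These are descriptions over 6 libraries that share their depth and tissue.

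Of the upstream factors in mouse neural differentiation, REST represses neuronal genes in non-neuronal cells and progenitors. Rest was at 551.6, 535.0 and 540.0 normalized counts in the controls and at 569.8, 642.6 and 680.8 in the tumors. The groups were separate by a small margin, and the log2 fold change of 0.21 did not pass the test (limma adjusted p = 0.140). Of 8 genes for REST and its corepressors, the other 7 rose (median of the list 1.22), beside 30.6% of all genes called higher. Rcor2, a CoREST family corepressor, had the largest rise, from 75.9, 111.8 and 118.7 to 6547, 7306 and 5052, which is 61.7-fold (log2 5.94, limma adjusted p = 9.53e-09). No gene of this list fell.

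The table gives no level of the mature miRNAs. Of the 5 hairpin rows for miR-9 and miR-124 in the table, 3 had 0 reads in all libraries and none passed the filter on low values. Mir124-2hg, a host gene of miR-124 chosen here after its values were seen, was at 2040, 1812 and 1762 normalized counts in the controls and at 1844, 1930 and 2117 in the tumors. These overlapped, with log2 0.07 (limma adjusted p = 0.554), and a host transcript does not give the level of the mature miRNA.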

How the data were processed

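RNA from 3 control cerebella and 3 tumors was prepared with TRIzol, column cleanup and a TruSeq kit, per the labels' protocols. Tools listed in the submitters' processing notes, with no order, are Bowtie2 2.2.4, edgeR, FastQC and featureCounts, and the build is mm10; the sources used here give neither annotation nor strand use. The deposited signal of a gene is a read count that the authors divided by a size factor (0.841 to 1.38): 100% of values gave whole reads to a tolerance of 1e-06. The authors' deposited tables also hold each gene's p-value, false discovery rate and fold or log2 fold change.

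Values over 1 in at least 3 libraries were tested with limma 3.58.1 with a mean-variance trend (R 4.3.3) on log2(value + 1), two-sided, over both groups and without covariates. Alternatives were edgeR 4.0.16 and DESeq2 1.42.0 on recovered reads, other scalings, filters and pseudocounts, a replicate block and leaving out each library. The limma fit alone was also run on simulated data with a fixed dispersion and few changed genes. That setting is unlike these data, and no call here rests on it. Pairs used exact permutation tests. Exon lengths came from GENCODE M21, in which 42462 gene IDs matched, 78.9% with identical coordinates.

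Members and lists were chosen with earlier results of these data known. Named beside the members were, by rule, Smo, the 3 largest rises and falls among the other BAF subunits with their paralogs, the largest changes in other lists with Rest, leading markers and the 3 genes most like Actl6a or Actl6b; other named list members were chosen after their values were seen.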

Additional observations from a re-analysis of the deposited data

How the results depend on the processing

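Directions and calls of Actl6a, Dpf2, Dpf3, Ss18, Smarca4 and Smarca2 held under all 16 alternatives, with log2 fold changes of 2.18 to 2.36, 0.28 to 0.46, -2.21 to -1.74, 1.10 to 1.28, 1.10 to 1.28 and -1.06 to -0.88. Dpf1 changed sign with upper-quartile scaling (-0.019) and without tumor 2; leaving out single libraries gave -2.64e-05 to 0.125, and the cause was not tested. Upper-quartile scaling moved the median of all genes to -0.10 and library totals to 0.07. Actl6b and Smarcd2 lost their calls with library totals (adjusted p = 0.101 and 0.0834), and Actl6b ranged from -0.45 to -0.25. Phf10 lost it with upper-quartile scaling (0.247), DESeq2 (0.0731), no filter beyond 1 value above 0 (0.0635) and the replicate block (0.0769). Ss18l1 passed with upper-quartile scaling (0.0164).

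Of the members, 4 to 5 were called higher and 2 to 4 lower; of all genes, 6110 to 7369 and 6109 to 7447; of the other subunits, 16 higher in each setting and 3 to 5 lower. Recovered reads gave 6800 genes higher and 6611 lower by edgeR, and 6528 and 6576 by DESeq2. The replicate block gave 6744 and 6943. Same-numbered libraries had correlations of 0.022, -0.051 and -0.0073, beside -0.047 to 0.053 for libraries of different numbers. With 3 libraries per group, such values cannot say whether the numbers pair them. The difference of the Actl6a/Actl6b ratio ranged from 2.53 to 2.72 and that of Phf10/Dpf1 from 0.036 to 0.196. A group of 3 libraries limits precision.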

Other observations

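Other families of remodeller ATPases were read as a comparison with the BAF motors. Of 12 genes of the ISWI, CHD and INO80 families, 6 were called higher, 2 lower and 4 neither, beside 30.6% higher and 31.5% lower over all genes. Their median log2 fold change was 0.37, beside -0.02 over all genes. Smarca5, an ISWI motor, was at 6033, 5959 and 6051 normalized counts in the controls and at 15809, 12894 and 15976 in the tumors, a rise of 2.48-fold (log2 1.30, limma adjusted p = 1.51e-06). Chd5, a CHD remodeller expressed mainly in neurons, was at 935.8, 1088 and 981.6 in the controls and at 162.5, 281.6 and 318.8 in the tumors. It had the largest fall of that list, log2 -2.03 (limma adjusted p = 3.19e-05), beside -1.98 for Dpf3, and tumor 3 was again the highest of the tumors. Chd3 also fell, by 0.61 on the log2 scale (limma adjusted p = 0.00382). The sizes of change of Smarca4 (log2 1.19) and Chd4 (1.29) were close, and the difference between them was not tested.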
